A study of Sus scrofa with 16 samples.

Results

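AVP and OXT, the genes of the neurohypophysial hormones vasopressin and oxytocin, were followed through the pituitary RNA of 16 pigs. They are 2 of the 25880 genes in the deposited count table, and both were found there. All 16 animals were gilts of the Pulawska breed, labelled as 3 months old, whereas the study's methods give a greater age at slaughter. Replicates 1 to 8 came from animals with a low feed conversion ratio (LFC) and replicates 9 to 16 from animals with a high feed conversion ratio (HFC), and feed conversion was the property by which the study formed its groups. By the study's methods the animals had no kinship and several farms of origin, with housing and feed shared during the test. Each library represents the whole pituitary of 1 animal, with 4 technical sequencing repeats in 1 column. No treatment or genetic change separated the groups, so each comparison between them sets selected animals side by side.

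Vasopressin and oxytocin are made in the large (magnocellular) neurons of the hypothalamus, each as part of a precursor that also holds a neurophysin, the protein that carries the hormone inside the secretory granule. The axons of these neurons end in the posterior lobe of the pituitary, where the hormones are released into the blood: vasopressin makes the kidney retain water and raises corticotropin release, and oxytocin acts on the uterus and the mammary gland. The cell bodies, where most of the mRNA lies, are not in the gland, although some of both mRNAs has been described in the axons. The gland itself holds hormone cells in its anterior lobe, melanotrophs in its intermediate lobe, and axon endings and pituicytes, the resident glia, in its posterior lobe.

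AVP (ENSSSCG00000007163) lies on chromosome 17 at 32581234 to 32583145 and OXT (ENSSSCG00000007164) on chromosome 17 at 32605586 to 32606449, by the RefSeq annotation of Sscrofa11.1, the assembly named in the submitters' processing notes. The genes are 22440 bp apart, and a long non-coding RNA, LOC100526084, is annotated between them. A further long non-coding RNA, LOC110257451, overlaps AVP over 1457 bp. The libraries carried no strand information, so reads of the overlap cannot be assigned to AVP or to LOC110257451. AVP and OXT also share a closely similar neurophysin stretch, and how the reads of that stretch were divided between them is uncertain.

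The libraries held between 10972583 and 23060458 counts, from 13997914 up in LFC and up to 19307337 in HFC. Of the 56 pairs of libraries within a group, none agreed within sampling noise. The anterior lobe hormones GH1, PRL, CGA, FSHB and TSHB together reached 13949 to 169292 CPM (read counts scaled to a common library size), lowest in HFC replicate 16, so their sum was high in every library, although TSHB had 1 count in HFC replicate 16 and 28 in HFC replicate 11. LFC replicate 5 and HFC replicates 13, 14 and 16 stood apart from the rest on the first 2 principal components, which held 41.8% and 18.6% of the variance. HFC replicate 11 lay near HFC replicate 14 on component 2 (-41.25 against -47.53) but was not counted among these 4. These 4 libraries also held the 4 highest OXT levels of the series, and results are given below with and without them.

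AVP transcripts were abundant in some glands and almost missing in others. In LFC the gene reached 6.20, 0.191, 0.126, 0.105, 22.2, 0.577, 5.64 and 0.715 CPM in replicates 1 to 8, from 101, 4, 2, 2, 233, 14, 128 and 14 counts. In HFC it reached 0, 3.64, 35.9, 0.825, 58.3, 44.9, 0.818 and 44.3 CPM in replicates 9 to 16, from 0, 67, 743, 12, 604, 438, 13 and 735 counts. LFC replicates 1, 5 and 7 and HFC replicates 10, 11, 13, 14 and 16 were high, the other libraries lay at or under 14 counts, and the groups overlapped over most of their range.

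OXT separated the same glands more widely. In LFC it reached 11.9, 0.191, 0, 0, 62.0, 0.412, 10.3 and 0.409 CPM in replicates 1 to 8, from 194, 4, 0, 0, 652, 10, 233 and 8 counts. In HFC it reached 0, 9.60, 26.6, 0.137, 65.2, 64.5, 0 and 84.8 CPM in replicates 9 to 16, from 0, 177, 551, 2, 675, 630, 0 and 1409 counts. The high libraries were again LFC 1, 5 and 7 and HFC 10, 11, 13, 14 and 16. The value of 0 in 4 libraries sets no level, because 3 counts, the most that a count of 0 allows, corresponded to 0.124 to 0.307 CPM across the 16 libraries, a limit that covers counting error only.

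**Figure D1:**
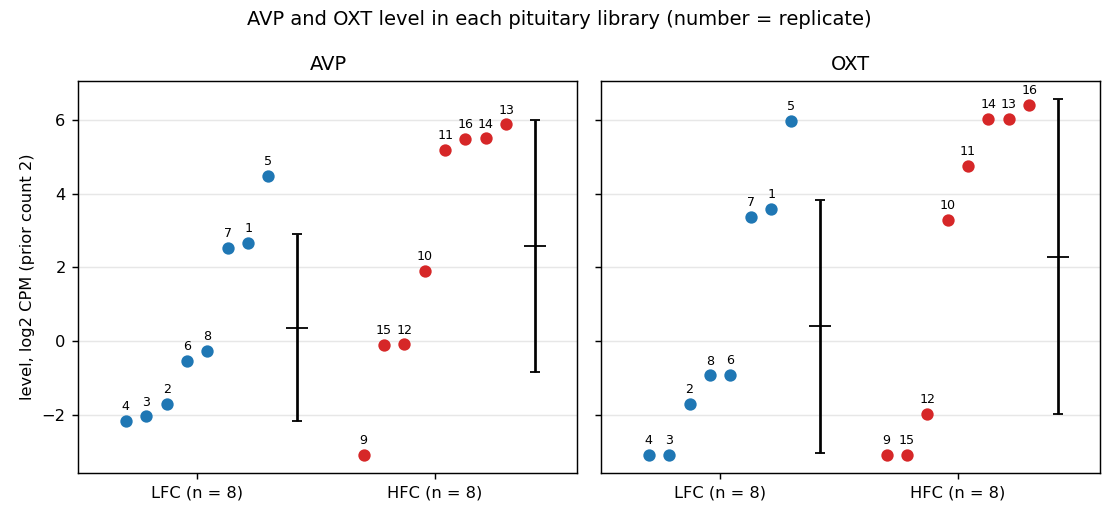
The level of AVP (left) and OXT (right) in each library, as log2 CPM with a prior count of 2, ordered within LFC (blue) and HFC (red) and numbered by replicate, with the group mean and SD as a bar. LFC 1, 5 and 7 and HFC 10, 11, 13, 14 and 16 form the upper level for both genes, and each group has libraries at both levels.

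With the libraries put in order, the widest step in OXT lay between LFC replicate 6 at 0.412 CPM and HFC replicate 10 at 9.60 CPM, a 23.3-fold step or 4.20 on the log2 scale, and the next widest was 1.22. This step left 8 libraries on either side. The order of AVP had its widest step at the same place, between HFC replicate 12 at 0.825 CPM and HFC replicate 10 at 3.64 CPM, a 4.41-fold step or 1.99 on the log2 scale. That step was barely wider than the next one, 1.82, so the split into an off and an on level was clear for OXT and shallow for AVP. The same 8 libraries stood above the step for both genes, 3 of the 8 LFC and 5 of the 8 HFC. Within this upper set, the levels still differed from gland to gland, by 16.0-fold for AVP and by 8.83-fold for OXT, so neither gene had 1 fixed on level. The 4 libraries that stood apart made up the top of the OXT range but not all of the upper set, since LFC replicates 1 and 7 and HFC replicates 10 and 11 lay above the step too.

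No gene varied more between glands than OXT. Its SD of log2 CPM over the 16 libraries was 3.86, the highest of the 14319 genes tested, and that of AVP was 3.11, at rank 10, against a median of 0.428 over all of these genes. The measured genes beside them on chromosome 17 varied far less, while FASTKD5 and GNRH2, which lie among them, were not analysed here. LZTS3, a synaptic scaffold protein, lay between 28.0 and 46.1 CPM, and UBOX5, a ubiquitin ligase, between 12.3 and 19.8 CPM. MRPS26, a protein of the mitochondrial ribosome, lay between 45.4 and 199 CPM, and PTPRA, a receptor tyrosine phosphatase, between 85.6 and 121 CPM. The SDs of these 4 neighbours on the log2 scale ran from 0.120 to 0.535.

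Where both hormones were well counted, their proportions could be compared within a library. The AVP share of the AVP and OXT counts does not depend on depth or scaling, but it is a share of counts and not of molecules, as the transcript lengths were not divided out. In the upper libraries of LFC it was 34.2% in replicate 1 (95% Wilson interval 29.1 to 39.8), 26.3% in replicate 5 (23.5 to 29.3) and 35.5% in replicate 7 (30.7 to 40.5). In those of HFC it was 27.5% in replicate 10 (22.2 to 33.4), 57.4% in replicate 11 (54.7 to 60.1), 47.2% in replicate 13 (44.5 to 49.96), 41.0% in replicate 14 (38.1 to 44.0) and 34.3% in replicate 16 (32.3 to 36.3). The highest share was that of HFC replicate 11 and the lowest that of LFC replicate 5, and the intervals cover the counting error of each library only. The corresponding ratio of OXT to AVP counts ran from 0.742 in HFC replicate 11 to 2.80 in LFC replicate 5, a 3.77-fold range that was narrower than the range of either gene's level.

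In the lower libraries the share rested on few counts. It was 50% of 8 counts in LFC replicate 2, 100% of 2 counts in LFC replicates 3 and 4, 58.3% of 24 counts in LFC replicate 6 and 63.6% of 22 counts in LFC replicate 8, and the intervals of all of these reached across 50%. HFC replicate 9 had no count of either gene. HFC replicate 12 had 12 AVP counts against 2 of OXT, a share of 85.7% (60.1 to 96.0), and HFC replicate 15 had 13 AVP counts and none of OXT, a share of 100% (77.2 to 100). In these 2 glands AVP counts were present almost without OXT, a proportion that no library of the upper set had.

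**Figure D2:**
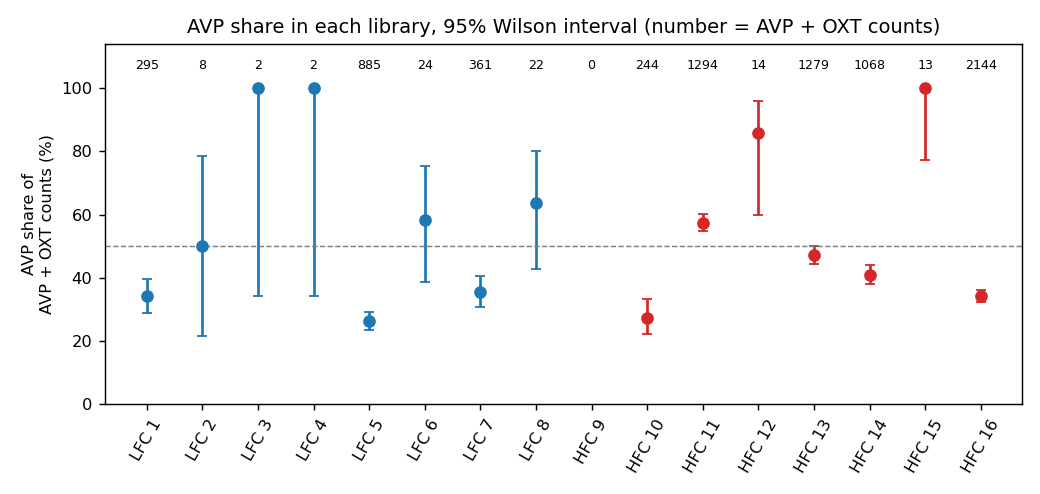
The AVP share of all AVP and OXT counts in each library in percent, with its 95% Wilson interval (counting error only) and, above, the number of counts it rests on. The 8 libraries with at least 244 counts lie between 26.3% and 57.4%, those with 2 to 24 counts scatter from 50% to 100%, and HFC 9 has no counts.

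AVP and OXT levels rose together across the glands of the upper set. Since the libraries fell into separate levels, the relation was computed within the 8 upper libraries only. Pearson's r of the log2 CPM was 0.920 (exact permutation p = 0.00414, adjusted p = 0.0456 over 11 relations) and Spearman's rho was 0.905 (exact permutation p = 0.00456, adjusted p = 0.0502). Without LFC replicate 7 and HFC replicate 10, which lay farthest from the median AVP level, r was 0.825 over 6 libraries. No value was computed within LFC or within HFC, which gave 3 and 5 libraries to the upper set. These 8 libraries were chosen by the levels themselves and include the 4 that stood apart.

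**Figure D3:**
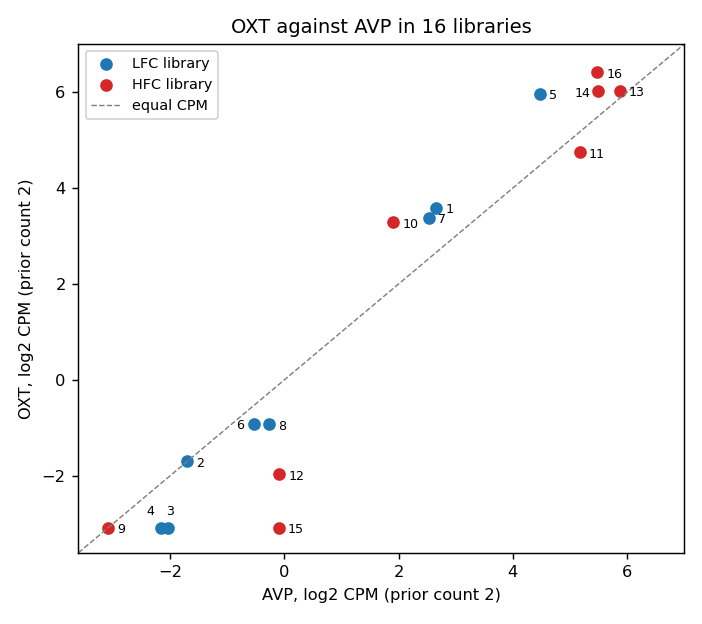
OXT against AVP in the 16 libraries, both as log2 CPM with a prior count of 2, LFC in blue and HFC in red, numbered by replicate, with a dashed line at equal CPM. The 8 libraries of the upper set lie apart from the 8 others, and among the lower ones HFC 12 and HFC 15 hold AVP counts with almost no OXT.

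The comparison of LFC with HFC asks whether glands of animals that used their feed less efficiently held other levels of these transcripts. The 8 LFC glands averaged 4.47 ± 7.59 CPM of AVP (SD) with a median of 0.646, and the 8 HFC glands 23.6 ± 24.6 CPM with a median of 19.8. For OXT the LFC glands averaged 10.7 ± 21.3 CPM with a median of 0.410, and the HFC glands 31.4 ± 34.9 CPM with a median of 18.1. The SDs were as large as the means or larger, because both groups held glands of either level. In RNA from a whole gland, fewer cells or endings of a type and less RNA in each cannot be told apart.

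Neither gene passed the test of this comparison. In the edgeR quasi-likelihood fit, where positive values are higher in HFC, the log2 fold change of AVP came to 2.44 (SE 1.19, adjusted p = 0.873). That of OXT came to 1.58 (SE 1.39, adjusted p = 0.99992). The fit called 0 of the 14319 genes tested (0%) at an adjusted p of at most 0.05 with a fold of at least 1.3. At an unadjusted p under 0.05 it held 834 genes (5.82%), 615 of them higher in HFC (4.29%) and 219 lower (1.53%), and AVP and OXT were not among these. DESeq2 called 6 genes (0.0419%), again without AVP and OXT. The exact permutation test on log2 CPM gave the same picture. For AVP the group means were 0.37 ± 2.52 and 2.58 ± 3.40, a difference of 2.21 (exact permutation p = 0.161, two-sided), and 5 of the 8 HFC glands exceeded the mean of LFC. For OXT they were 0.40 ± 3.42 and 2.29 ± 4.27, a difference of 1.89 (exact permutation p = 0.336, two-sided), and the same 5 HFC glands exceeded the mean of LFC.

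The size of both differences hung on LFC replicate 5, the highest LFC library for either gene. Without it the log2 fold change of OXT was 3.24 (edgeR, adjusted p = 0.392) and that of AVP was 3.60 (adjusted p = 0.353), both then at an unadjusted p under 0.05. AVP was at an unadjusted p under 0.05 also without HFC replicate 9, 10, 12 or 15, without LFC replicate 5 and HFC replicate 14 together, with total counts for scaling and with DESeq2, with adjusted p of 0.568 to 0.908 in these settings. Without all 4 libraries that stood apart, the log2 fold change of AVP was 2.10 (SE 1.20, adjusted p = 0.977), OXT no longer passed the filter on low counts, and the differences in mean log2 CPM were 0.98 for AVP (exact permutation p = 0.528) and 0.37 for OXT (exact permutation p = 0.879). The difference in AVP without HFC replicate 9, the library with no counts, was 3.02 (exact permutation p = 0.0472), not adjusted for the number of libraries left out in turn.

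**Figure D4:**
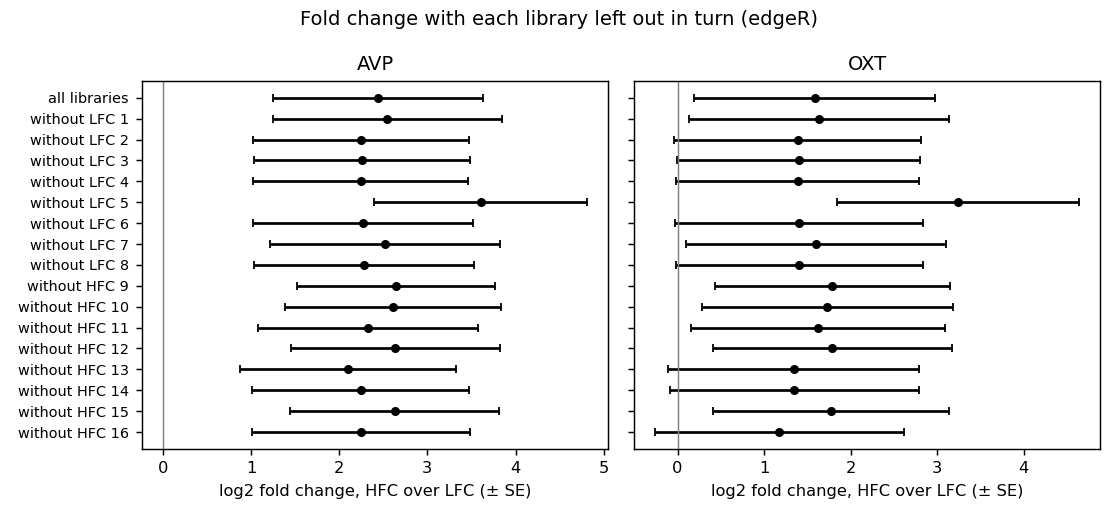
The log2 fold change of AVP (left) and OXT (right), HFC over LFC, with its SE, from the edgeR fit on all 16 libraries and with each library left out in turn. All values stay above 0, and the value without LFC 5 is the highest for both genes, 3.60 for AVP and 3.24 for OXT.

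The proportion of the hormones did not pass the test between the groups. The log2 ratio of AVP to OXT, each with 2 counts added, averaged -0.02 ± 0.96 in LFC and 0.27 ± 1.43 in HFC (n = 8 each), a difference of 0.29 (exact permutation p = 0.645, two-sided). HFC replicate 9, with no counts, enters this ratio at 0 through the added counts. The difference was -0.080 (exact permutation p = 0.897) when libraries with fewer than 20 counts of both genes were left out, a choice made after seeing the data.

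The other genes of the vasopressin and oxytocin system were measured in the same glands. Of the 4 receptors, AVPR1B, through which vasopressin acts on the corticotrophs of the anterior lobe, was the one with abundant transcripts in nearly every gland. It lay between 46.0 and 421 CPM in LFC (209 ± 138, SD) and between 2.41 and 486 CPM in HFC (174 ± 147), and HFC over LFC it came to -0.27 on the log2 scale (SE 0.65, adjusted p = 0.99992). The lowest value was that of HFC replicate 16, the gland with the highest OXT level and the lowest summed anterior lobe hormones, and the highest was that of HFC replicate 12, a gland of the lower set. AVPR2, the renal receptor that signals through cAMP, lay between 0.491 and 8.47 CPM in LFC and between 0.629 and 2.66 CPM in HFC, with a log2 fold change of -0.25 (SE 0.50, adjusted p = 0.99992). Its LFC maximum was again LFC replicate 5, and without that library the value was 0.51 (SE 0.32, adjusted p = 0.488), so its direction rested on 1 gland. OXTR, the oxytocin receptor, had at most 11 counts and AVPR1A, the receptor of blood vessels and liver, at most 3 in any library, and neither passed the filter on low counts.

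The enzymes that cut and finish the precursors were present in all glands, at levels that differed from gland to gland. PCSK1, a prohormone convertase, lay between 62.5 and 310 CPM, with a log2 fold change of -0.21 (SE 0.30). CPE, the carboxypeptidase that trims the cut peptides, lay between 521 and 1506 CPM, with a log2 fold change of -0.17 (SE 0.20). It was mostly lower where the hormones were high, at 521 to 1053 CPM in the upper set and 1021 to 1506 CPM in the others. Over the 16 libraries its Pearson's r with the mean log2 CPM of AVP and OXT was -0.793, given as a description. PAM, which amidates both hormones, lay between 184 and 811 CPM, with a log2 fold change of 0.19 (SE 0.22) that was -0.039 without HFC replicate 16. With PCSK2, SCG5 and PCSK1N, 2 of these 6 genes were higher and 4 lower in HFC, with a median log2 fold change of -0.18 against -0.01 over all genes tested, and 1 of them, PCSK2, had an unadjusted p under 0.05. Over all genes tested, 48.4% were higher in HFC and 5.82% had an unadjusted p under 0.05. PCSK2 ran from 2.47 CPM in LFC replicate 5 to 2595 CPM in HFC replicate 16, both of the upper set, with a log2 fold change of 5.34 (SE 1.28).

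The genes of signalling and breakdown gave no called difference either. Of 12 genes of the Gq pathway, through which AVPR1B and OXTR signal, 5 were higher and 7 lower, with a median of -0.05 and none at an unadjusted p under 0.05. GNA14, a Gq family alpha subunit, came to 0.70 (SE 0.35, adjusted p = 0.884). Of the 3 tested genes of the cAMP pathway of AVPR2, 1 was higher and 2 lower, with a median of -0.01, and AQP2, the water channel of the kidney that vasopressin controls, had at most 1 count in any library. LNPEP, the membrane aminopeptidase also called oxytocinase, came to -0.25 on the log2 scale (SE 0.41), and PREP, a prolyl endopeptidase, to 0.07 (SE 0.13). Over all lists, 53 distinct genes were tested, of which 23 were higher and 30 lower in HFC, 7 had an unadjusted p under 0.05 and 0 were called, with a median of -0.09. Over all genes tested, 48.4% were higher in HFC and 5.82% had an unadjusted p under 0.05.

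Of the transcription factors and co-peptides of magnocellular neurons, some were close to the detection limit in the glands with high AVP and OXT and others were not. SIM1, a transcription factor of these neurons, had 1 count in all 16 libraries together, in HFC replicate 14. OTP, which acts beside it, had at most 5 counts, also in HFC replicate 14, and 9 libraries were at 0. ARNT2, the partner of SIM1, lay between 30.6 and 120 CPM, with a log2 fold change of 0.17 (SE 0.24), and is expressed widely outside these neurons. CRH, the corticotropin-releasing peptide, had at most 4 counts in any library. Of the co-peptides, PDYN, CARTPT and NUCB2 passed the filter, all 3 lower in HFC and none with an unadjusted p under 0.05, with a median of -0.37. That median was -0.055 without LFC replicate 5. Over all genes tested, 48.4% were higher in HFC and 5.82% had an unadjusted p under 0.05. PDYN lay between 0.441 and 6.45 CPM and CARTPT between 0.361 and 17.6 CPM, both highest in HFC replicate 14, and NUCB2 between 129 and 437 CPM. GAL had 1 to 115 counts, most in LFC replicate 8, and CCK had 0 to 30, most in LFC replicate 1.

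Peptides of other hypothalamic neurons were checked as signs of hypothalamic tissue beside the gland. SST reached 17 counts and AGRP 14 counts in HFC replicate 13, and PMCH reached 10 counts there. HCRT had 37 counts in LFC replicate 5 and 21 in HFC replicate 13 and at least 1 in every library, and GHRH and GNRH1 were highest in LFC replicate 5, with 6 and 14 counts. NPY had 179 counts in LFC replicate 2, where AVP and OXT had 4 counts each, and at most 3 elsewhere. QRFP had at most 2 counts. Of the 8 genes measured, with a summed level of 0.368 to 9.28 CPM in LFC and 0.301 to 7.05 CPM in HFC, none passed the filter. The small counts of these peptides were thus highest in libraries of the upper set that also stood apart, except NPY and QRFP, and their part in the AVP and OXT levels was not tested.

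Several markers of pituicytes moved with AVP and OXT from gland to gland. RAX, a transcription factor of the developing posterior lobe, reached 33.9 CPM in HFC replicate 16, 15.1 in replicate 11, 8.20 in replicate 14, 5.89 in replicate 13 and 1.63 in replicate 10. In LFC it reached 2.47 CPM in replicate 5, 1.35 in replicate 1 and 0.881 in replicate 7, and no other library of either group was above 0.0657 CPM. The 8 libraries with at least 20 counts of RAX were the 8 of the upper set, and the others had at most 1 count. GFAP, an intermediate filament of astroglia, divided the libraries in the same way, from 6.38 CPM in HFC replicate 11 to 234 CPM in HFC replicate 14 in the upper set and from 0.504 to 1.87 CPM in the others. AQP4, a glial water channel, and SLC1A3, a glial glutamate transporter, did not follow it, with 7.61 to 29.5 CPM and 3.29 to 9.83 CPM over all 16 libraries.

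Of the 6 pituicyte genes tested, 5 were higher and 1 lower in HFC, with a median log2 fold change of 2.69, and RAX, LHX2 and COL25A1 had an unadjusted p under 0.05, where over all genes tested 48.4% were higher and 4.29% were higher at that p. Their log2 fold changes were 3.90 (SE 1.35, adjusted p = 0.648), 3.68 (SE 1.32, adjusted p = 0.656) and 3.47 (SE 1.16, adjusted p = 0.612), so none was called. Without HFC replicate 16 they were 3.02, 2.73 and 2.51. Without the 4 libraries that stood apart, or without LFC replicate 5 and HFC replicate 14, these 3 genes no longer passed the filter on low counts, and GFAP, at 1.90 (SE 1.19) with all libraries, came to 0.0075 and 1.69. The summed level of the 6 genes was 23.1 to 86.9 CPM in LFC (median 32.4) and 21.4 to 331 CPM in HFC (median 96.9). Within the upper set, the mean log2 level of the list had an r of 0.754 with AVP (exact permutation p = 0.0376, adjusted p = 0.193) and of 0.715 with OXT (exact permutation p = 0.0526, adjusted p = 0.193). The part of the pituicyte markers in the LFC to HFC difference of AVP and OXT was not tested.

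Set against pituicyte genes within each library, the hormones did not keep 1 proportion. In the upper set the ratio of OXT to LHX2 counts ran from 0.518 in HFC replicate 11 to 7.76 in LFC replicate 5, and that of AVP to LHX2 counts from 0.349 in HFC replicate 16 to 3.49 in HFC replicate 13. The ratio of OXT to GFAP counts ran from 0.188 in HFC replicate 10 to 4.17 in HFC replicate 11. CRYM, a thyroid hormone binding protein, and LHX2 were both among the genes picked for levels like those of the hormones, so neither range is independent of that choice. Per CRYM count, OXT ran from 0.0304 in HFC replicate 11 to 0.116 in LFC replicate 1, a 3.82-fold range, and AVP over a 3.53-fold range. HFC replicate 11 thus held many LHX2 counts and few GFAP counts for its hormone level, and LFC replicate 5 few LHX2 counts.

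Of the markers of melanotrophs, the cells of the neighbouring intermediate lobe, PAX7 and PCSK2 were high in part of the same glands. PAX7, their lineage factor, and PCSK2, their prohormone convertase, had log2 fold changes of 5.31 (SE 1.32, adjusted p = 0.612) and 5.34 (SE 1.28, adjusted p = 0.612). DRD2, the other gene of the list, came to 0.25 (SE 0.43). It lay between 55.6 and 177 CPM in LFC and between 38.9 and 490 CPM in HFC, lowest in HFC replicate 13, a gland of the upper set. The 3 genes summed to 58.8 to 182 CPM in LFC, mostly from DRD2, and to 54.0 to 3418 CPM in HFC, highest in HFC replicate 16. Without HFC replicate 16 PAX7 came to 2.86 and PCSK2 to 3.21, and with all libraries DESeq2 gave 2.75 (adjusted p = 0.167) and 3.07 (adjusted p = 0.0783), limma-voom 3.01 and 2.98. The link with the hormones was not complete. HFC replicate 15 had 126 CPM of PCSK2 and 9.81 CPM of PAX7 with no count of OXT or RAX and 0.818 CPM of AVP, whereas LFC replicate 5, with 62.0 CPM of OXT, had no count of PAX7. Within the upper set, r with the melanotroph list was 0.539 for AVP and 0.441 for OXT (exact permutation, adjusted p = 0.364 for both).

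Summed over their list, general neuronal genes were mostly lower, not higher, in the upper set. The 11 genes of neurons and axon terminals tested summed to 801 to 1093 CPM in LFC and 734 to 1171 CPM in HFC. The sum was 962.2 to 1109 CPM in the lower set. In the upper set it was 734 to 961.8 CPM, except 999 CPM in HFC replicate 11 and 1171 CPM in HFC replicate 16. Over all libraries, Pearson's r of single genes with the mean log2 CPM of AVP and OXT is given as a description. It ran from -0.765 for STX1A to 0.284 for TUBB3. Of the 11 genes, 6 were higher and 5 lower in HFC, with a median of 0.02. SYN1, a synaptic vesicle protein, had an unadjusted p under 0.05 at a log2 fold change of -0.32 (SE 0.13, adjusted p = 0.739). Anterior lobe cells express many of these genes too. Within the upper set, r with the list was -0.20 for AVP and -0.30 for OXT, with the anterior lobe hormones -0.45 and -0.44, and with the log2 total counts -0.46 and -0.53, and the adjusted exact permutation p of these 6 relations ran from 0.364 to 0.640. All 5 anterior lobe hormone genes tested were lower in HFC, with a median of -0.39, and PRL had an unadjusted p under 0.05 at -1.86 (SE 0.71, adjusted p = 0.719). Over all genes tested, 48.4% were higher in HFC and 1.53% were lower at that p. GH1 (-0.14, SE 0.52), FSHB (-0.30, SE 0.44) and TSHB (-0.72, SE 1.13) lay within their SE of 0. The list did not hold POMC, whose expression the study reported to rise with feed conversion in Pulawska pigs.

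**Figure D5:**
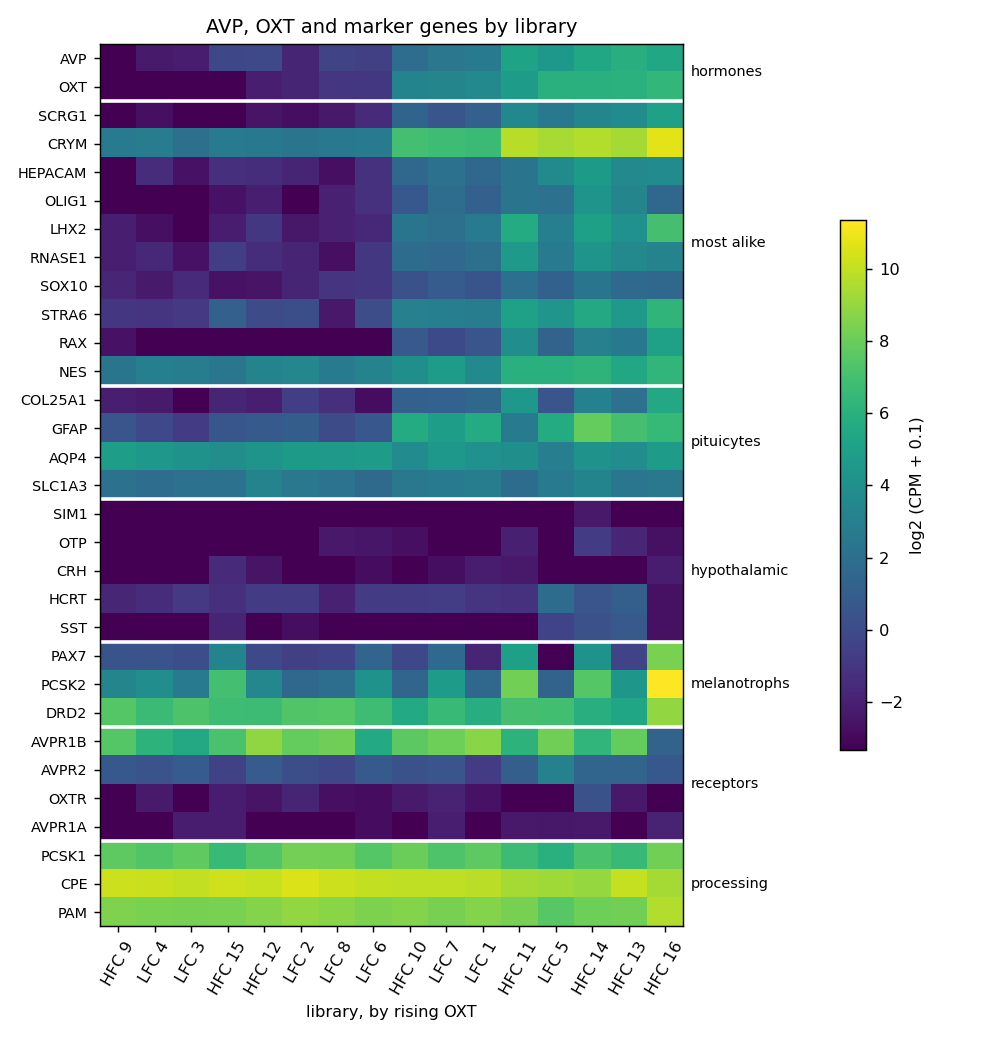
Levels of AVP, OXT, the genes most like them and marker genes as log2 of CPM + 0.1 (colour), with the 16 libraries ordered from left to right by rising OXT. The rows of the most alike genes, RAX and GFAP rise from HFC 10 onwards, together with AVP and OXT. The hypothalamic rows are dark in most libraries, but HCRT reaches 3.52 CPM in LFC 5 and SST 1.64 CPM in HFC 13. AQP4 and CPE vary less than AVP and OXT. AQP4 lies between 7.61 and 29.5 CPM, and CPE at 521 to 1053 CPM in the upper set and 1021 to 1506 CPM in the others.

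The genes whose levels were most like those of AVP and OXT were ranked by Pearson's r of log2 CPM with the mean of the pair over the 16 libraries, given as a description of libraries that fall into separate levels. The 10 highest among named genes were SCRG1 (0.981), CRYM (0.977), HEPACAM (0.970), OLIG1 (0.969), LHX2 (0.963), RNASE1 (0.958), SOX10 (0.955), STRA6 (0.943), RAX (0.943) and NES (0.938). Of the 14317 other genes tested, 32 had an r of at least 0.9 and 231 an r of at least 0.8. Each of the 10 was higher in every library of the upper set than in any other library. CRYM lay between 103 and 1732 CPM in the upper set and at or under 7.09 CPM elsewhere. SCRG1 lay between 1.41 and 33.4 CPM against at most 0.247, and HEPACAM, a glial adhesion protein, between 2.82 and 25.2 CPM against at most 0.329. OLIG1 and SOX10, transcription factors of the oligodendrocyte lineage, lay between 1.52 and 18.8 CPM against at most 0.329 and between 1.14 and 5.12 CPM against at most 0.412. STRA6, the receptor for retinol uptake, lay between 7.30 and 75.7 CPM against at most 2.20. NES, the intermediate filament nestin, had the smallest step, from at most 10.9 CPM to 12.9 to 81.2 CPM. As the 10 genes were picked for this likeness, their step at the same 8 glands describes the choice and is no separate evidence.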

How the data were processed

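Whole pituitaries of 16 Pulawska gilts (8 LFC, 8 HFC) were profiled by poly(A) RNA sequencing without strand information. The authors used FastQC and Flexbar on the single-end reads, STAR for alignment to Sscrofa11.1 and RSEM to estimate gene levels, and deposited whole-number counts per gene, with the 4 technical repeats of an animal in 1 column. The labels' extraction text names fat samples, whereas the tissue label and the methods name the pituitary. A further deposited table holds the authors' group means, fold changes and p-values, of which only gene symbols and coordinates were used.

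AVP and OXT were identified by their Ensembl identifiers in a table of Ensembl names, and their coordinates came from RefSeq (Sscrofa11.1). All 9560 genes matched by symbol and chromosome overlapped between the deposited and the RefSeq coordinates. No sequences are given. CPM were counts over TMM-scaled library sizes, and the depth of 10972583 to 23060458 counts put 3 counts at 0.124 to 0.307 CPM. Intervals and limits cover counting error only, as reads carried no molecular identifiers.

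The LFC and HFC libraries entered the quasi-likelihood test of edgeR 4.0.16 (R 4.3.3, TMM, filterByExpr, no covariate), which tested 14319 genes. A call needed a Benjamini-Hochberg adjusted p of at most 0.05 and a fold of at least 1.3, the thresholds of the study. The SE of a fold change was its size over the square root of F. Single values were tested by exact permutation over all 12870 assignments of 8 of 16 libraries, on log2 CPM with a prior count of 2 (scipy 1.17.1). Relations were computed in the 8 libraries above the widest OXT step, over all 40320 orderings, with 11 relations adjusted together. This replaced the planned relation over all 16 libraries, because they fell into separate levels. Replicates were separate animals, and no batch was given in the labels.

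The members and the gene lists were chosen with earlier results of these data known. The text names AVP and OXT, genes of the lists, the 10 named genes with the highest r with the mean of the pair, and the 3 nearest named genes on either side on the chromosome, of which FASTKD5 and GNRH2 were not analysed here. Of 79 list genes, 69 were found, 53 passed the filter, and 10 (APLN, KISS1, LHB, NEFM, NKX2-1, OACYL, POU3F2, S100B, TAC3, TRH) were not analysed here. NUCB2 was named by position. Alternatives were DESeq2 1.42.0, limma-voom (limma 3.58.1), 4 other scalings, 2 other filters, a robust fit, other prior counts and libraries left out. The code was tested on simulated data.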

Additional observations from a re-analysis of the deposited data

Results flagged for a closer look

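Levels on the log2 CPM scale were checked for libraries far from the rest of their own group of 8, by the gap to the nearest other library over the range of the group. None of these was AVP, OXT or their ratio. Of 44 checks on 22 measures 14 found such a library, where chance gives about 1 in 20, or 2.2, and measures of 1 library are not independent. They came from LFC replicate 5 and HFC replicate 16, which both belong to the 8 libraries with high AVP and OXT.

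LFC replicate 5 was high for AVPR2 (3.10, the others at most 0.96), SCG5, the chaperone of PCSK2 (10.48, the others at most 10.10), PCSK1N, the inhibitor of PCSK1 (12.23, the others at most 10.70), and the mean of the receptor list (5.64, the others at most 4.35). It was low for PCSK1 (5.97, the others from 7.32) and PAM (7.52, the others from 8.32), so the enzymes that finish the precursors were low in the LFC gland with the highest AVP and OXT. It was also low for the mean of the lists of peptide breakdown (2.79, the others from 4.36), Gq signalling (4.12, from 5.24), cAMP signalling (6.86, from 8.02) and magnocellular transcription factors, which rests on ARNT2 alone (4.94, from 5.57).

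HFC replicate 16, the gland with the highest OXT, was high for PAM (9.66, the others at most 8.65). It was low for AVPR1B (1.34, the others from 6.15), the mean of the receptor list (1.04, the others from 3.35) and the mean of the anterior lobe hormones (7.77, the others from 10.80).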

How the results depend on the processing

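The log2 fold changes of AVP and OXT kept their direction and stayed under the threshold in every alternative that tested them. AVP ran from 2.10 (4 libraries that stood apart left out, chosen after seeing the data) to 3.40 (LFC replicate 5 and HFC replicate 14 left out), and with 1 library left out from 2.10 to 3.60. OXT ran from 1.53 (DESeq2) to 2.05 (limma-voom), and with 1 library left out from 1.17 to 3.24. OXT could not be fitted under either setting that left out several libraries, nor AVP and OXT with at least 10 counts in every library, since they no longer passed the filter. In the permutation tests the difference of AVP ran from 0.98 to 2.38, and from 1.74 to 3.02 with 1 library left out, where it passed 0.05 without HFC replicate 9. The difference of OXT ran from 0.37 to 2.15, and up to 2.68 with 1 library left out. The ratio turned to -0.080 without libraries of fewer than 20 counts, was 0.57 without the 4 libraries, and ran from -0.087 (without HFC replicate 15) to 0.52 with 1 library left out. DESeq2 called 6 genes where edgeR called 0. Among single genes, AVPR1B turned to 0.12 and PAM to -0.046 without the 4 libraries. AVPR2 turned to 0.19 with limma-voom, 0.41 without LFC replicate 5 and HFC replicate 14 and 0.23 without the 4 libraries. With 1 library left out AVPR2 ran from -0.40 to 0.51 and PAM from -0.039 to 0.27. The relation of AVP and OXT in the upper set kept an r of 0.825 to 0.965. In all, 34 values turned in sign under an alternative, 9 of them those above and 25 of them medians of 6 lists, such as the receptors, whose median of -0.26 was 0.17 without the 4 libraries. The cause of these changes was not tested. No paired analysis was possible because the animals were unrelated by the study's methods and the labels gave no pairs. Few counts limit what can be read in the 8 lower libraries, where AVP rested on at most 14 counts and OXT on at most 10. The deepest library, LFC replicate 6, was among them, and the shallowest, HFC replicate 14, was in the upper set.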
